A study of Mus musculus with 9 samples.

Results

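The genes described here are 6 core pluripotency factors of mouse embryonic stem cells, Pou5f1, Sox2, Nanog, Sall4, Utf1 and Fbxo15. They were taken by symbol from gene-level RNA-seq tables that list 22322 genes, and each symbol matched 1 row. All 6 passed the filter on low counts, as did 13158 of the genes listed.

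OCT4, the POU-domain protein of Pou5f1, and SOX2, an HMG-box protein, bind DNA side by side at many enhancers of stem cells. With the homeodomain protein NANOG they act on each other's genes and on a wide set of further targets, and the zinc finger protein SALL4 joins this circuit. Utf1 and Fbxo15 are classic targets of OCT4 and SOX2 and were among the first reporters of the pluripotent state, which cells lose as they leave self-renewal.

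The cells were R1, a mouse embryonic stem cell line. All 3 groups had spent 6 days in suspension without LIF, the cytokine that keeps these cells undifferentiated, and formed embryoid bodies, the aggregates in which stem cells begin to differentiate. The group sh-Pfkp carried a hairpin against Pfkp, the platelet isoform of the glycolytic enzyme phosphofructokinase. The group sh-Lin41 carried a hairpin against Lin41, the RNA-binding protein encoded by Trim71. The reference for both was sh-ctrl, a control hairpin in cells labelled wild type. Each group had 3 libraries, and the labels name 1 hairpin per gene and no rescue. Nothing in the labels ties these libraries to separate cultures, and the p-values therefore reflect only how far libraries differed, possibly for technical reasons.

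Total counts per library were between 15495194 and 20607683, and the core factors had between 1557 and 20338 counts each per library. Levels are CPM, counts relative to library sizes adjusted by TMM, or FPKM, which also divides by length, where genes are compared with each other. Differences are log2 fold changes from edgeR's quasi-likelihood test, and a gene was called where the p adjusted over all 13158 tested genes was under 0.05. Some are also given by limma on log2(FPKM + 1). The added 1 makes those values smaller than the fold change where FPKM is low, so there the 2 sizes are not estimates of the same quantity. Pfkp averaged 102.9 ± 1.89 CPM in sh-Pfkp and 247.1 ± 1.83 CPM in sh-ctrl (SD, n = 3 each). Trim71 averaged 159.6 ± 4.89 CPM in sh-Lin41 and 268.8 ± 4.72 CPM in sh-ctrl, and it was higher in sh-Pfkp, at 352.2 ± 6.77 CPM (SD, n = 3 each). In these bulk libraries, fewer cells of a type and less RNA per cell cannot be told apart.

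All 6 factors were transcribed in all 9 libraries. The groups differed in how much of each was present, by at most 46.3% in any comparison. Against sh-ctrl, Sox2, Nanog and Sall4 rose in both knockdowns and Utf1 fell in both. Pou5f1 fell in sh-Pfkp and rose in sh-Lin41, and Fbxo15 rose in sh-Pfkp and was not called in sh-Lin41. In sh-Pfkp against sh-ctrl, 6 of 6 factors were called, 4 higher and 2 lower, where 56.6% of all tested genes were called, 28.3% higher and 28.3% lower. In sh-Lin41 against sh-ctrl, 5 of 6 were called, 4 higher and 1 lower, where 54.3% of all tested genes were called, 26.9% higher and 27.3% lower. Between sh-Pfkp and sh-Lin41, 6 of 6 were called, 3 higher and 3 lower, where 55.1% of all tested genes were called, 27.4% higher and 27.8% lower. The CPM of the groups did not overlap for 6 factors in sh-Pfkp against sh-ctrl, where this held for 61.0% of tested genes, for 5 in sh-Lin41 against sh-ctrl (59.0%) and for 6 between the knockdowns (59.8%). Most genes were thus called in each comparison, and a call alone sets no factor apart. The median log2 fold change of the 6 factors was 0.21 in sh-Pfkp and 0.20 in sh-Lin41 against sh-ctrl, beside medians of -0.005 and 0.004 over all tested genes. Their values had both signs, from -0.10 to 0.52 in sh-Pfkp and from -0.31 to 0.53 in sh-Lin41. With the sign left out, the median over all tested genes was 0.212 in sh-Pfkp and 0.204 in sh-Lin41. Differences of this size were thus common. Both comparisons share the sh-ctrl libraries.

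**Figure D1:**
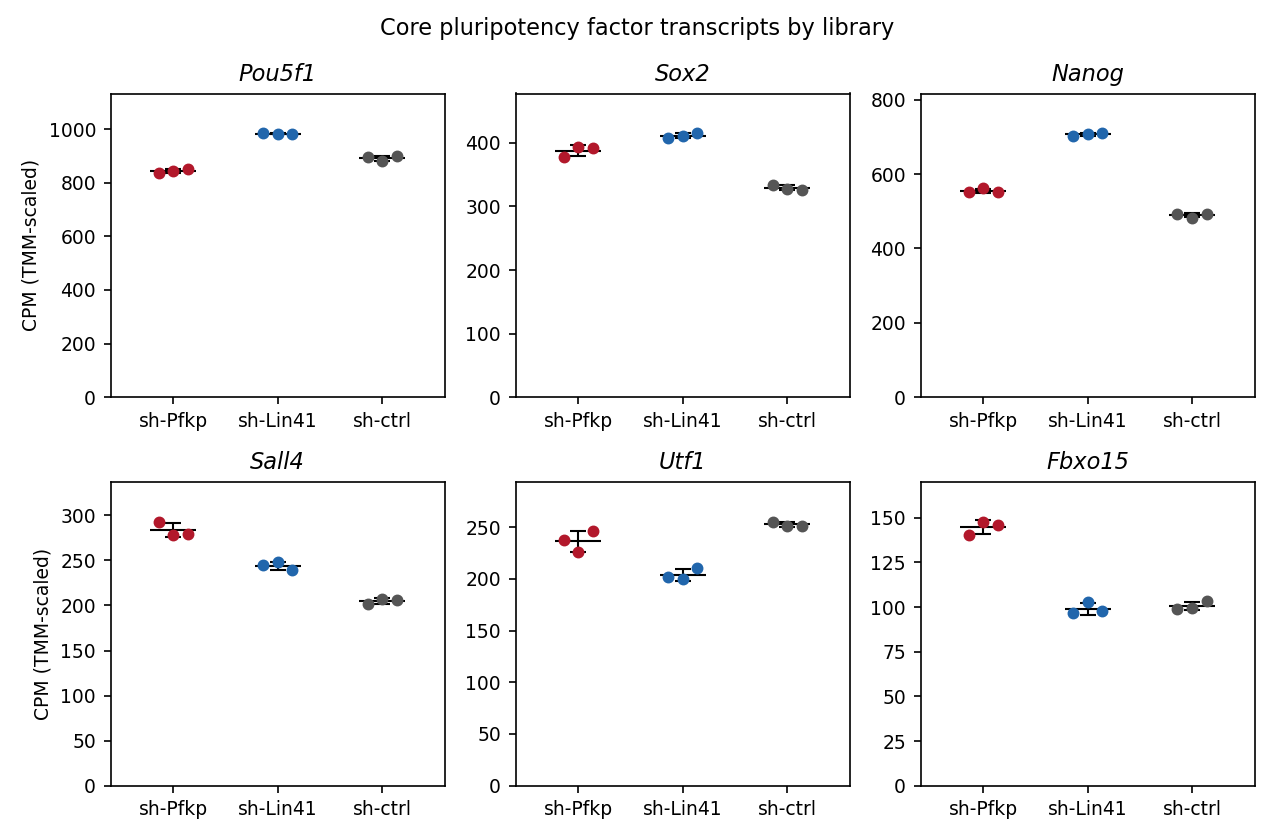
TMM-scaled CPM of the 6 factors in each library of sh-Pfkp, sh-Lin41 and sh-ctrl, with the mean and SD of each group, each panel on its own axis from 0. The groups do not overlap in 5 of the 6 panels, and sh-Lin41 and sh-ctrl overlap for Fbxo15, at 98.9 and 100.7 CPM on average.

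Promoter sequences are shown for 3 factors with opposite differences, Sox2 and Nanog, which rose in both knockdowns, and Utf1, which fell in both. Each is the 250 bases before the annotated start site, on the plus strand of RefSeq build GRCm38.p6, and capitals mark every match on either strand to 5 short motifs. The motifs were the octamer core ATGCAAA, which POU proteins bind, the SOX element CATTGT, their composite CATTGTNATGCAAA, the GC box GGGCGG and the nuclear receptor half-site AGGTCA. Windows were found for 4 of the 6 factors.
Nanog, chr6:122707239-122707488, plus strand: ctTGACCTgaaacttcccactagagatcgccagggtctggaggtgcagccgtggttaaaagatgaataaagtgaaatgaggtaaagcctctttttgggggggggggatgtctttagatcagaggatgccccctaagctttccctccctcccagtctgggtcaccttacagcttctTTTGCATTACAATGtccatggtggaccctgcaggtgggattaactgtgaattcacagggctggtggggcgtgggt
Sox2, chr3:34649745-34649994, plus strand: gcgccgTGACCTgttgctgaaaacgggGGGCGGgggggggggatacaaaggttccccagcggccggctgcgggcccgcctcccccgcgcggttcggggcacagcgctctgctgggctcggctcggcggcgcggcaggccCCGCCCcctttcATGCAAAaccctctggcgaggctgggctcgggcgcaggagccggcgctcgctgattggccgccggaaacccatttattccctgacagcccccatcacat
Utf1, chr7:139943606-139943855, plus strand: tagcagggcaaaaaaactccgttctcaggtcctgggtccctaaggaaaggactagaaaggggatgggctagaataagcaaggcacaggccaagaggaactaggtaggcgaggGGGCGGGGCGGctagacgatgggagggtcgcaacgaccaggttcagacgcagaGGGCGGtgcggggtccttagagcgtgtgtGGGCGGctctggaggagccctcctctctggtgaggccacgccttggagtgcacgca
In Nanog the capitals from 75 bases before the start site, TTTGCATTACAATG, are the composite read on the other strand, with the octamer core and the SOX element inside it. This is the site through which OCT4 and SOX2 are known to act on Nanog. The composite occurred in 2 of 32807 RefSeq promoter windows, 0.0061%, and both are overlapping windows of Nanog itself. The window shown for Nanog also held a half-site at 248 bases on the other strand. Sox2 held the octamer core at 99 bases before its start site, a motif found in 4.13% of all windows. Sox2 also had a GC box at 223 bases and, on the other strand, a GC box at 111 and a half-site at 244 bases. Utf1 held 4 GC boxes, at 138, 133, 85 and 56 bases, of which the first pair overlap, and GC boxes occurred in 32.7% of windows. A window of Pou5f1 that is not shown, chr17:35505782-35506031 on the plus strand, held a GC box at 45 and a half-site at 33 bases. The half-site occurred in 14% of windows. A second Pou5f1 window, chr17:35508557-35508806, held the SOX element at 158 bases on the other strand. The SOX element alone occurred in 10.7%. A match is a description of the letters, and no match says only that these letters are not in this window.

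Pou5f1, the gene of OCT4, had the smallest span of the 6 across the groups. It had 836.1, 843.9 and 849.8 CPM in the sh-Pfkp libraries, 985.3, 981.1 and 983.3 CPM in the sh-Lin41 libraries, and 896.4, 881.1 and 898.1 CPM in the sh-ctrl libraries. The groups did not overlap, with sh-Lin41 highest and sh-Pfkp lowest. In sh-Pfkp, Pou5f1 fell by 5.47% against sh-ctrl (log2 -0.08, SE 0.0161, adjusted p 7.52e-05 by edgeR), and 22.1% of tested genes differed by less. In sh-Lin41 it was 10.2% higher than in sh-ctrl (log2 0.14, SE 0.0160, adjusted p 6.36e-09 by edgeR). Directly compared, sh-Pfkp had 14.2% less than sh-Lin41 (log2 -0.22, SE 0.0160, adjusted p 2.14e-13 by edgeR). The difference of sh-Pfkp from sh-ctrl was -0.13 with scaling by library totals alone, and also -0.13 by limma on log2(FPKM + 1). In GENCODE vM21, Pou5f1 shares 317 of its 2248 exonic bases with a gene on the opposite strand, Gm19553, which has no row of its own here. Without a stated strand setting, reads of the pair cannot be told apart.

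Sox2, the HMG-box partner of OCT4, had 377.4, 393.1 and 392.2 CPM in the sh-Pfkp libraries, 408.3, 410.8 and 415.3 CPM in the sh-Lin41 libraries, and 334.3, 327.9 and 326.1 CPM in the sh-ctrl libraries. Every library of either knockdown lay above every sh-ctrl library, and sh-Lin41 lay above sh-Pfkp. Sox2 rose by 17.6% in sh-Pfkp (log2 0.23, SE 0.0213, adjusted p 5.26e-11 by edgeR) and by 24.9% in sh-Lin41 (log2 0.32, SE 0.0211, adjusted p 2.28e-14 by edgeR), each against sh-ctrl. Between the knockdowns the difference was small, with sh-Pfkp 5.81% below sh-Lin41 (log2 -0.09, SE 0.0207, adjusted p 0.000674 by edgeR). That difference was -0.13 on the log2 scale with library totals alone. Sox2 lies inside the longer gene Sox2ot on the same strand and shares 0 exonic bases with it.

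Nanog, the homeodomain factor that stabilises self-renewal, differed most in sh-Lin41. It had 552.0, 561.3 and 550.6 CPM in the sh-Pfkp libraries, 703.0, 708.6 and 710.2 CPM in the sh-Lin41 libraries, and 492.2, 482.8 and 491.9 CPM in the sh-ctrl libraries. The 3 groups were well apart, and the spread within a group was at most 5.79 CPM (SD, n = 3). In sh-Lin41 Nanog was 44.6% higher than in sh-ctrl (log2 0.53, SE 0.0179, adjusted p 8.60e-22 by edgeR), a difference larger than that of 84.1% of tested genes. In sh-Pfkp it rose by 13.4% against sh-ctrl (log2 0.18, SE 0.0182, adjusted p 4.56e-10 by edgeR). Nanog was 21.6% lower in sh-Pfkp than in sh-Lin41 (log2 -0.35, SE 0.0176, adjusted p 3.03e-17 by edgeR). It shared the order of the groups with Sox2, sh-Lin41 highest and sh-ctrl lowest.

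Sall4, which encodes a zinc finger protein that binds OCT4 and NANOG and recruits the NuRD deacetylase complex, had the reverse order of the knockdowns. It had 293.0, 278.5 and 279.8 CPM in the sh-Pfkp libraries, 245.3, 247.9 and 239.3 CPM in the sh-Lin41 libraries, and 201.5, 207.7 and 206.3 CPM in the sh-ctrl libraries. The sh-Pfkp libraries were highest, the sh-ctrl libraries lowest, and no groups overlapped. Sall4 rose by 38.4% in sh-Pfkp (log2 0.47, SE 0.0250, adjusted p 1.25e-16 by edgeR) and by 19.1% in sh-Lin41 (log2 0.25, SE 0.0252, adjusted p 4.19e-10 by edgeR), each against sh-ctrl. Its level in sh-Pfkp exceeded that in sh-Lin41 by 16.2% (log2 0.22, SE 0.0241, adjusted p 3.72e-09 by edgeR). By limma on log2(FPKM + 1) this last difference was 0.13 (adjusted p 0.0304), so counts and FPKM gave different sizes for this gene.

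Counts divided by FPKM and depth give the length that the authors' values imply for a gene, a second readout that can move where transcripts of unlike length are weighted differently. It moved for Sall4. Relative to the sh-ctrl mean it was 93.1, 98.6 and 97.9% in the sh-Pfkp libraries, 94.4, 97.1 and 89.7% in the sh-Lin41 libraries, and 98.0, 103.8 and 98.2% in the sh-ctrl libraries. The sh-Lin41 libraries lay narrowly below sh-ctrl, at most 97.1% against at least 98.0%, and the sh-Pfkp libraries overlapped it. The share of all genes whose groups did not overlap in this readout was not computed, and transcript use was not tested. The mean log2 shift was -0.05 in sh-Pfkp and -0.09 in sh-Lin41, and 87.0% and 94.3% of 5349 genes with at least 500 counts in every library shifted less. For Pou5f1, Sox2, Nanog and Utf1 the shift was at most 0.001 in size, and for Fbxo15 it was -0.01 in sh-Pfkp and 0.02 in sh-Lin41. Sall4 shares 526 of its 5536 exonic bases with Gm14261 on the opposite strand, which has no row of its own here.

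Utf1, the gene of a chromatin-associated protein that falls early in differentiation, was highest in sh-ctrl. It had 237.5, 226.0 and 246.3 CPM in the sh-Pfkp libraries, 201.4, 199.7 and 210.7 CPM in the sh-Lin41 libraries, and 255.4, 250.9 and 251.5 CPM in the sh-ctrl libraries. The sh-Lin41 libraries were lowest and overlapped no other group, while the highest sh-Pfkp library came close to sh-ctrl. In sh-Lin41 Utf1 fell by 19.3% against sh-ctrl (log2 -0.31, SE 0.0275, adjusted p 2.90e-11 by edgeR). In sh-Pfkp it fell by 6.41% against sh-ctrl (log2 -0.10, SE 0.0272, adjusted p 0.00341 by edgeR). That call rested on 1 library: without sh-Pfkp replicate 2 the log2 difference was -0.06 with an adjusted p of 0.0715 by edgeR. Its level in sh-Pfkp exceeded that in sh-Lin41 by 16.01% (log2 0.21, SE 0.0275, adjusted p 6.21e-08 by edgeR).

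Fbxo15, which encodes an F-box protein that stem cells can do without, moved in 1 knockdown. It had 140.5, 147.8 and 145.9 CPM in the sh-Pfkp libraries, 96.5, 102.6 and 97.7 CPM in the sh-Lin41 libraries, and 99.1, 99.5 and 103.4 CPM in the sh-ctrl libraries. The sh-Pfkp libraries stood above all the others, and the sh-Lin41 and sh-ctrl libraries overlapped. Fbxo15 rose by 43.7% in sh-Pfkp against sh-ctrl (log2 0.52, SE 0.0323, adjusted p 5.09e-15 by edgeR), and sh-Pfkp had 46.3% more of it than sh-Lin41 (log2 0.55, SE 0.0317, adjusted p 1.03e-15 by edgeR). For sh-Lin41 against sh-ctrl the log2 difference was -0.03 (SE 0.0337, adjusted p 0.547 by edgeR), with a 95% interval from -6.32% to 3.05%.

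**Figure D2:**
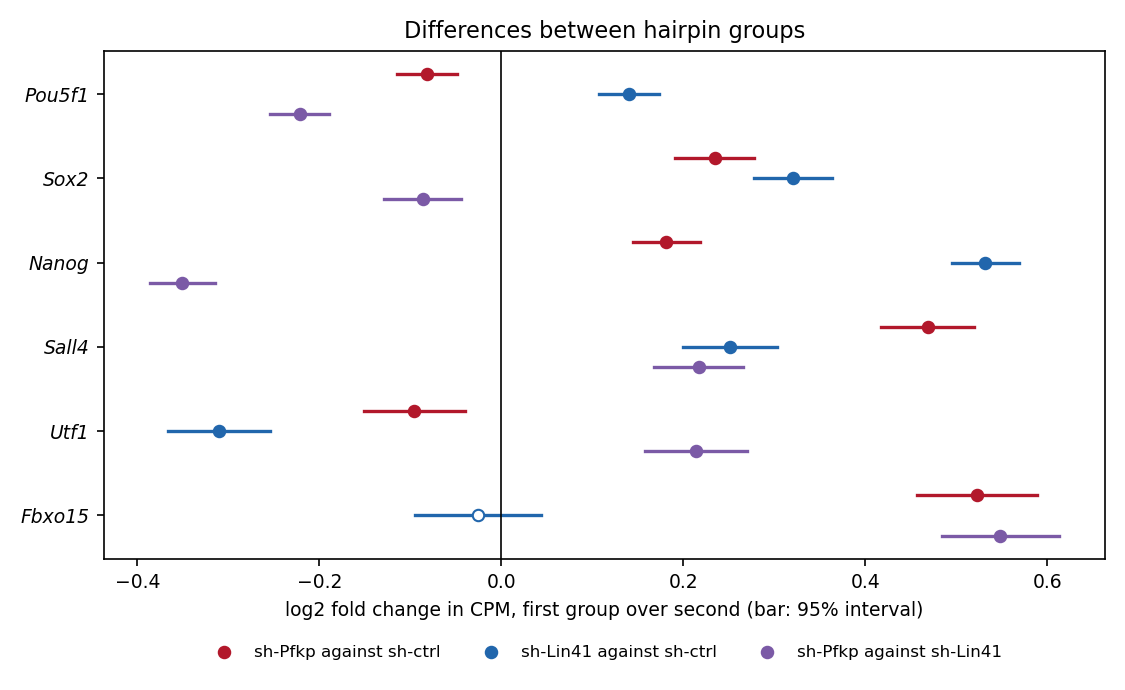
Log2 fold change in CPM of each factor for sh-Pfkp against sh-ctrl, sh-Lin41 against sh-ctrl and sh-Pfkp against sh-Lin41, with 95% intervals; the open point was not called. Nanog lies farthest right in sh-Lin41 (0.53), Fbxo15 and Sall4 in sh-Pfkp (0.52 and 0.47), and Utf1 lies left of 0 in both knockdowns.

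The authors' deposited table gives a log2 ratio of group mean FPKM, and its signs were the same as those above for the 6 factors against sh-ctrl. In the authors' deposited table, sh-Pfkp had Pou5f1 at -0.13, Sox2 at 0.19, Nanog at 0.13, Sall4 at 0.47, Utf1 at -0.14 and Fbxo15 at 0.48. For sh-Lin41 the authors' deposited table has Pou5f1 at 0.14, Sox2 at 0.32, Nanog at 0.53, Sall4 at 0.34, Utf1 at -0.31 and Fbxo15 at -0.05. Its FDR was 0.713 for Fbxo15 in sh-Lin41 in the authors' deposited table, and at most 0.00775 for the other pairs.

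Per length, Pou5f1 was the most abundant of the 6 in every group, with a mean of 607 FPKM in sh-Pfkp, 729.8 FPKM in sh-Lin41 and 663 FPKM in sh-ctrl. It ranked 95th of 22322 genes in sh-Pfkp, 74th in sh-Lin41 and 91st in sh-ctrl. Nanog came next in each group, with a mean of 246 FPKM in sh-Pfkp, 323 FPKM in sh-Lin41 and 224 FPKM in sh-ctrl. The order below Nanog changed with the hairpin. Utf1 had 179.79 to 196.63 FPKM in the sh-Pfkp libraries, which overlapped Sox2 at 179.58 to 186.74 FPKM. In sh-Lin41, Sox2 stood above Utf1, at a mean of 202 against 168 FPKM, and in sh-ctrl Utf1 stood above Sox2, at 208 against 162 FPKM. These are levels in FPKM, and the sh-Lin41 and sh-ctrl ranges of the pair did not overlap within either group. At the bottom, Fbxo15 stood above Sall4 in sh-Pfkp, at 78.6 against 60.9 FPKM, and in sh-ctrl, at 56.3 against 43.9 FPKM. In sh-Lin41 that pair overlapped, with 51.77 to 56.85 FPKM for Fbxo15 and 54.3 to 57.06 FPKM for Sall4. The 6 factors together took 0.238 to 0.241% of all counts in the sh-Pfkp libraries, 0.267 to 0.269% in the sh-Lin41 libraries and 0.227 to 0.231% in the sh-ctrl libraries. Of all FPKM they took 0.291 to 0.298% in sh-Pfkp, 0.322 to 0.330% in sh-Lin41 and 0.290 to 0.296% in sh-ctrl. By that share sh-Pfkp and sh-ctrl overlapped, and sh-Lin41 lay above both.

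A ratio taken within a library does not depend on how libraries are scaled, so each factor was also set against Pou5f1 in FPKM. Nanog was 40.6, 40.9 and 39.9% of Pou5f1 in the sh-Pfkp libraries, 43.9, 44.5 and 44.5% in the sh-Lin41 libraries, and 33.9, 33.7 and 33.8% in the sh-ctrl libraries. Sox2 was 30.4% of Pou5f1 on average in sh-Pfkp, 27.7% in sh-Lin41 and 24.4% in sh-ctrl. These ratios depend on the denominator. With the median of the other 5 factors in its place, the log2 difference of Nanog was -0.0351 in sh-Pfkp against sh-ctrl (exact permutation p 0.3), and that of Sox2 was -0.30 in sh-Pfkp against sh-Lin41 (exact permutation p 0.1). Sall4 was 10.04% of Pou5f1 in sh-Pfkp, 7.63% in sh-Lin41 and 6.62% in sh-ctrl. Fbxo15 was 13.0% of Pou5f1 in sh-Pfkp, 7.47% in sh-Lin41 and 8.49% in sh-ctrl. Utf1 was 31.4, 29.7 and 32.2% of Pou5f1 in the sh-Pfkp libraries, 22.7, 22.6 and 23.8% in the sh-Lin41 libraries, and 31.6, 31.6 and 31.1% in the sh-ctrl libraries. The ratio of Utf1 overlapped between sh-Pfkp and sh-ctrl, where the mean log2 difference was -0.02 (exact permutation p 0.8, two-sided). In the other 14 of 15 ratio comparisons the groups did not overlap. Each of those gave an exact two-sided permutation p of 0.1, the smallest that 3 libraries against 3 allow, with an adjusted p of 0.107, so none can pass 0.05. How often ratios to Pou5f1 do not overlap over all genes was not computed. The FPKM of Pou5f1 itself did not overlap between any groups, and the count of 14 alone sets no factor apart. By this ratio sh-Pfkp had more Sox2 than sh-Lin41, a log2 difference of 0.13, although its CPM was lower; Pou5f1 differed more between them.

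**Figure D3:**
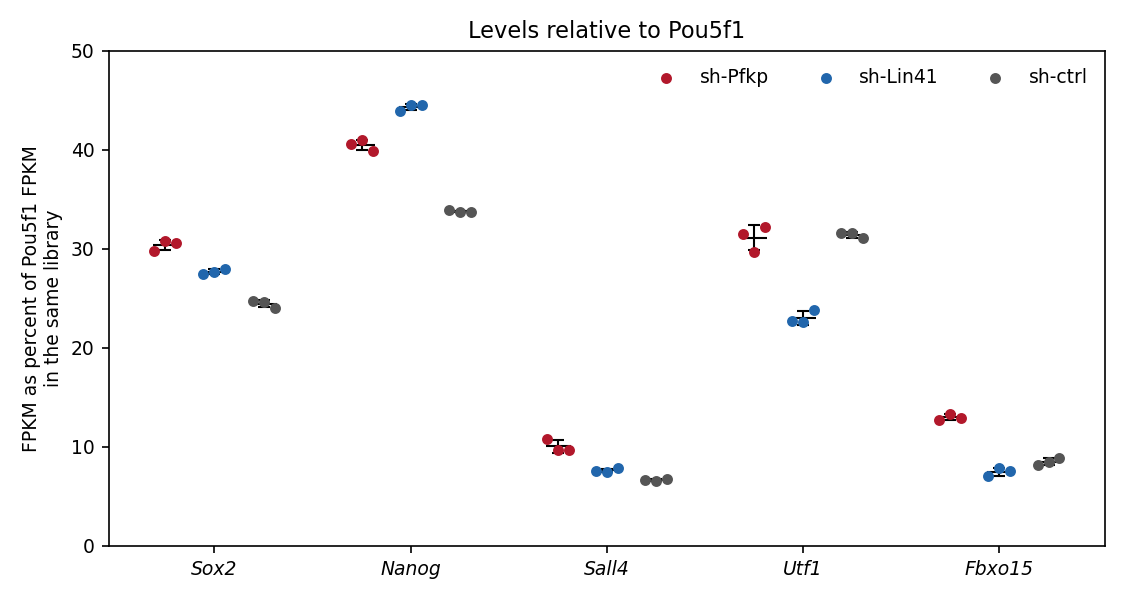
FPKM of 5 factors as a percentage of Pou5f1 FPKM in the same library, for sh-Pfkp, sh-Lin41 and sh-ctrl, with the mean and SD of each group. Sall4 and Fbxo15 stand highest in sh-Pfkp, Nanog in sh-Lin41, and Utf1 is lowest in sh-Lin41, at 23.0% on average.

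As a measure of likeness, the root mean square difference of log2 CPM around each gene's own mean was taken over the 9 libraries. Among the 6 factors the most alike pair was Sox2 and Nanog at 0.115, then Pou5f1 and Sox2 at 0.130, Sox2 and Sall4 at 0.137, and Sall4 and Fbxo15 at 0.152. The least alike was Nanog and Fbxo15 at 0.372. For comparison, the median distance to 8450 other genes with at least 10 CPM was 0.179 from Sox2, 0.253 from Nanog, 0.217 from Sall4 and 0.269 from Fbxo15. From Sox2, Nanog ranked 1551st in nearness among those genes, so many others were nearer than the closest fellow factor. Among the nearest to Sox2 were Kdm2a (0.0258) and Atxn7l3b (0.0292), and the nearest to Nanog were Med13 (0.0249), Tmem43 (0.0290) and Srxn1 (0.0333). The nearest to Sall4 were Phf3 (0.0256), Zfx (0.0292) and Cdc27 (0.0327). Those nearest to Utf1 were Psmb2 (0.0250), Vcl (0.0300) and Eif3d (0.0300). Fbxo15 was followed most closely by Dctd (0.0407), Zfp980 (0.0432) and Ckb (0.0502). Pou5f1 spanned 0.22 on the log2 scale between group means, under the 0.3 asked for, and no such genes are named for it.

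The counts for this and the following lists stand beside the calls over all tested genes, of which 28.3% were higher and 28.3% lower in sh-Pfkp against sh-ctrl. These shares were 26.9 and 27.3% in sh-Lin41 against sh-ctrl, and 27.4 and 27.8% in sh-Pfkp against sh-Lin41. Of 14 tested genes described as targets of OCT4 and SOX2, 8 rose and 5 fell in sh-Pfkp against sh-ctrl, with a median log2 fold change of 0.10. In sh-Lin41 against sh-ctrl, 7 rose and 3 fell, with a median of 0.10. Zfp42, also called Rex1, averaged 722.1 ± 7.12 CPM in sh-Lin41 and 420.1 ± 15.8 CPM in sh-ctrl (SD, n = 3 each; log2 0.78). Nr0b1, the gene of the OCT4-binding repressor DAX1, averaged 120.7 ± 1.63 CPM in sh-Lin41 and 70.6 ± 3.65 CPM in sh-ctrl (SD, n = 3 each; log2 0.77). Zfp42 (log2 0.41) and Nr0b1 (0.52) were also called higher in sh-Pfkp against sh-ctrl. Jarid2, a cofactor of Polycomb complex PRC2, rose in sh-Lin41 as well (log2 0.46). It averaged 552.7 ± 6.25 CPM in sh-Pfkp, above sh-ctrl at 478.7 ± 3.72 CPM (SD, n = 3 each). Lefty1, an inhibitor of NODAL, fell in both knockdowns, to 18.9 ± 1.86 CPM in sh-Pfkp and 25.7 ± 0.663 CPM in sh-Lin41, against 48.1 ± 1.81 CPM in sh-ctrl (SD, n = 3 each). Tdgf1, the NODAL co-receptor, had 551.4 ± 10.4 CPM in sh-Pfkp and 984.4 ± 2.39 CPM in sh-ctrl (SD, n = 3 each; log2 -0.84). Rif1, a telomere and replication timing protein, rose in sh-Pfkp (log2 0.45), and Dppa5a, a marker of the stem cell state, fell (log2 -0.42). Between sh-Pfkp and sh-Lin41, 4 of 14 were higher and 9 lower (median -0.20), with Tdgf1 at -0.87, Zfp42 at -0.37, Esrrb at -0.26 and Jarid2 at -0.25.

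Of 29 described protein partners of OCT4, SOX2, NANOG or SALL4, 12 rose and 11 fell in sh-Pfkp (median log2 0.04), and 11 rose and 14 fell in sh-Lin41 (median log2 -0.04), each against sh-ctrl. With library totals alone 9 were higher and 13 lower in sh-Pfkp, and by limma on log2(FPKM + 1) 7 were higher and 12 lower. Tet2, which oxidises methylcytosine, averaged 708.5 ± 11.9 CPM in sh-Lin41 and 422.7 ± 3.48 CPM in sh-ctrl (SD, n = 3 each; log2 0.75). The transcription factor genes Nr5a2 (log2 0.66) and Klf4 (0.46) and the RNA-binding protein gene L1td1 (0.36) also rose in sh-Lin41. In sh-Pfkp, Zfp281 (log2 0.45), a zinc finger partner of NANOG, Arid1a (0.41), a subunit of the BAF remodeller, and L1td1 (0.28) rose. Zfp281 and Arid1a were higher in sh-Lin41 as well, at 243.4 ± 8.51 and 504.7 ± 0.702 CPM. In sh-ctrl they averaged 193.8 ± 6.05 and 401.3 ± 5.61 CPM (SD, n = 3 each). Chd4, the remodelling enzyme of the NuRD complex that SALL4 recruits, fell in sh-Pfkp to 826.6 ± 1.28 CPM, against 950.7 ± 1.27 CPM in sh-ctrl (SD, n = 3 each; log2 -0.20). It was lower than sh-ctrl in sh-Lin41 too, at 785.9 ± 7.51 CPM (SD, n = 3). Between sh-Pfkp and sh-Lin41, 16 partners were higher and 7 lower, or 11 higher and 9 lower with scaling by library totals alone and 9 higher and 7 lower by limma. The NuRD subunit genes Mta1 (log2 0.47) and Rbbp7 (0.23) were higher in sh-Pfkp compared with sh-Lin41, and Tet2 (-0.70) and Klf4 (-0.69) were lower. For both NuRD genes sh-ctrl had the highest mean. Mta1 averaged 155.5 ± 5.47 CPM in sh-Pfkp, 111.8 ± 3.28 CPM in sh-Lin41 and 167.0 ± 3.73 CPM in sh-ctrl (SD, n = 3 each). Rbbp7 averaged 411.4 ± 9.07 CPM in sh-Pfkp, 350.4 ± 3.85 CPM in sh-Lin41 and 436.8 ± 3.98 CPM in sh-ctrl (SD, n = 3 each).

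F-box proteins such as FBXO15 join a ubiquitin ligase through SKP1 and CUL1. Cul1 rose in sh-Pfkp (log2 0.20, or 0.11 by limma on log2(FPKM + 1)) and fell in sh-Lin41 (-0.22), each against sh-ctrl. Skp1 averaged 350.1 ± 2.07 CPM in sh-Pfkp, 278.9 ± 4.15 CPM in sh-Lin41 and 374.6 ± 3.26 CPM in sh-ctrl (SD, n = 3 each). It was lower than sh-ctrl in both knockdowns, by -0.10 in sh-Pfkp and -0.43 in sh-Lin41 on the log2 scale. The third member of this list was not called in any of the 3 comparisons.

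Paralogues of the POU, SOX and SALL genes can bind similar DNA, and 24 of 33 passed the filter. In sh-Pfkp 9 rose and 8 fell (median log2 -0.03), and in sh-Lin41 10 rose and 6 fell (median log2 0.27), each against sh-ctrl. The 4 SALL genes, Sall4 included, were called higher in both knockdowns, which share the sh-ctrl libraries. Over all tested genes 28.3% were called higher in sh-Pfkp and 26.9% in sh-Lin41, and this group was singled out after its values were seen. Sall2 was at log2 0.70 in sh-Pfkp and 0.66 in sh-Lin41, and Sall1 at 0.17 in sh-Pfkp. Sall3 averaged 37.3 ± 1.18 CPM in sh-Pfkp, 59.9 ± 2.18 CPM in sh-Lin41 and 19.6 ± 1.98 CPM in sh-ctrl (SD, n = 3 each). Sall1 averaged 509.0 ± 3.32 CPM in sh-Lin41 and 333.2 ± 2.60 CPM in sh-ctrl (SD, n = 3 each; log2 0.61). Sall1 (log2 -0.44) and Sall3 (-0.68) were lower in sh-Pfkp than in sh-Lin41, where Sall4 was higher. Pou2f3, a POU factor of epithelial tuft cells, fell in sh-Pfkp to 3.48 ± 0.729 CPM, against 15.8 ± 1.45 CPM in sh-ctrl (SD, n = 3 each; log2 -2.20). In sh-Lin41 it was also below sh-ctrl, at 11.5 ± 0.877 CPM (SD, n = 3). Pou4f2, a factor of retinal ganglion neurons, rose in sh-Pfkp (log2 1.17) and in sh-Lin41 (1.13), and Sox1, a neural relative of Sox2, rose in sh-Lin41 (1.10). Sox3, another close relative of Sox2, was lower in sh-Pfkp than in sh-Lin41 (log2 -1.59, or -0.94 by limma on log2(FPKM + 1)), at 1.59 ± 0.286 CPM in sh-Pfkp and 4.82 ± 0.212 CPM in sh-Lin41 (SD, n = 3 each). Pou2f1, the broadly expressed OCT1 gene, rose in sh-Pfkp (log2 0.23). It was higher in sh-Lin41 too, at 242.9 ± 6.06 CPM against 223.9 ± 2.33 CPM in sh-ctrl (SD, n = 3 each).

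**Figure D4:**
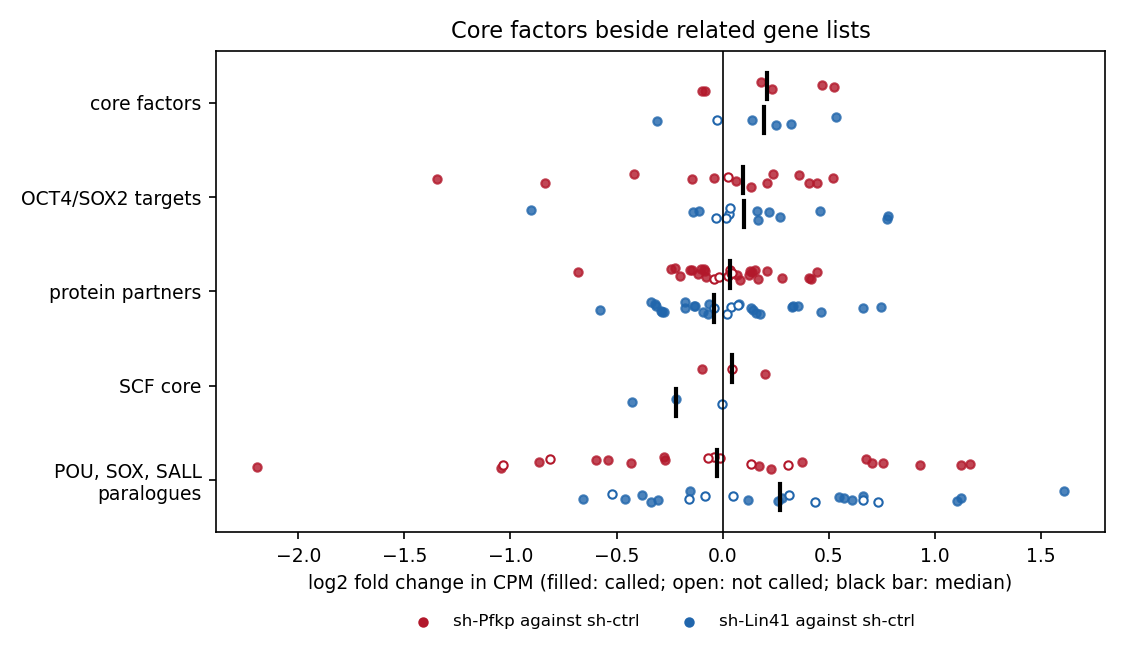
Log2 fold change in CPM against sh-ctrl for the 6 factors, 14 target genes, 29 protein partners, 3 ligase genes and 24 paralogues that were tested, one point per gene (filled: called; open: not called), with the median of each list as a bar. The medians of the 6 factors are 0.21 in sh-Pfkp and 0.20 in sh-Lin41.

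Markers of other cell types that embryoid bodies can hold were low beside those of stem cells. The summed CPM of 10 stem cell markers, which include the 6 factors, without TMM scaling was 4676 to 4737 in the sh-Pfkp libraries, 5928 to 5989 in the sh-Lin41 libraries and 5129 to 5212 in the sh-ctrl libraries. Of these 10, 5 were called higher and 5 lower in sh-Pfkp, and 6 higher and 2 lower in sh-Lin41, each against sh-ctrl. The abundant Tdgf1 fell most of the 10 in sh-Pfkp (log2 -0.84) and weighs heavily in that sum. Of 12 trophectoderm markers, whose lineage OCT4 holds back in early embryos, the sum was 79.3 to 84.1 CPM in sh-Pfkp, 66.9 to 68.6 CPM in sh-Lin41 and 86.3 to 96.0 CPM in sh-ctrl. Elf5 was at 0 counts in sh-Pfkp and Plac1 in sh-ctrl. Among the 7 tested, 1 rose and 6 fell in sh-Pfkp, and 6 fell in sh-Lin41 with 1 not called. Krt8, a simple epithelial keratin, had 3.71 ± 0.435 CPM in sh-Pfkp, 5.25 ± 0.504 CPM in sh-Lin41 and 9.59 ± 0.626 CPM in sh-ctrl (SD, n = 3 each). Eomes fell in sh-Pfkp (log2 -0.49) and sh-Lin41 (-0.67), and Tfap2c, which stem cells express too, rose in sh-Pfkp (0.37) and fell in sh-Lin41 (-0.28). Tead4, a trophectoderm factor gene, fell in sh-Pfkp (log2 -0.49), and Ascl2, a placental one, in sh-Lin41 (-1.67, or -0.70 by limma on log2(FPKM + 1)). The 10 primitive endoderm markers summed to 10.1 to 11.9 CPM in sh-Pfkp, 12.4 to 13.2 CPM in sh-Lin41 and 8.21 to 10.1 CPM in sh-ctrl, with Afp at 0 counts in every library and Ttr at 0 in both knockdowns. Of 6 tested, 2 rose and 1 fell in sh-Pfkp and 2 rose in sh-Lin41, each against sh-ctrl. Hnf4a, a visceral endoderm factor gene, rose in sh-Pfkp (log2 0.87, or 0.31 by limma on log2(FPKM + 1)) and in sh-Lin41 (1.20, or 0.48 by limma). Pdgfra, a receptor gene of primitive endoderm and mesenchyme, rose in sh-Pfkp (log2 2.23, or 0.37 by limma) and in sh-Lin41 (1.21, or 0.20 and not called by limma, nor without sh-Lin41 replicate 3). Gata4, an endoderm factor gene, fell in sh-Pfkp (log2 -0.52), a call that limma (-0.27), DESeq2 and 4 of the 6 fits with 1 sh-Pfkp or sh-ctrl library left out did not make. The 7 streak markers summed to 3.75 to 3.87 CPM in sh-Pfkp, 1.99 to 2.80 CPM in sh-Lin41 and 2.27 to 2.71 CPM in sh-ctrl, with 6 of 7 under 1 CPM in sh-Pfkp, 7 of 7 in sh-Lin41 and in sh-ctrl, and Mesp1 at 0 in sh-Lin41. Evx1, a streak homeobox gene, rose in sh-Pfkp (log2 2.08, or 0.57 by limma on log2(FPKM + 1)) and was at 0.73 in sh-Lin41, which was not called. The 9 neuroectoderm markers summed to 149 to 156 CPM in sh-Pfkp, 141 to 142 CPM in sh-Lin41 and 165 to 167 CPM in sh-ctrl. Of 7 tested, 3 rose and 3 fell in sh-Pfkp and 2 rose and 2 fell in sh-Lin41, each against sh-ctrl. Elavl3, a neuronal RNA-binding protein gene, was at log2 -1.53 in sh-Pfkp and -1.05 in sh-Lin41. The neural progenitor gene Pax6 rose in sh-Pfkp (log2 1.08), as did Sox1 (0.76, or 0.49 by limma on log2(FPKM + 1)), and Map2, of neuronal microtubules, fell (-0.90). Progenitor and neuronal genes did not split by direction there. Tubb3 was higher in sh-Pfkp, at 80.3 ± 2.95 CPM against 66.8 ± 1.79 CPM in sh-ctrl (SD, n = 3 each). Sox3 was lower in sh-Pfkp, at 1.59 ± 0.286 CPM against 3.32 ± 0.586 CPM in sh-ctrl (SD, n = 3 each). In sh-Lin41, Sox1 (log2 1.10) and Sox3 (0.55, or 0.36 by limma) rose and Tubb3, neuronal tubulin, fell (-0.32).

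The 9 fibroblast or stromal markers summed to 27.5 to 31.2 CPM in sh-Pfkp, 9.27 to 11.0 CPM in sh-Lin41 and 13.5 to 14.6 CPM in sh-ctrl. Of 7 tested, 5 rose and 2 fell in sh-Pfkp, and 1 rose and 1 fell in sh-Lin41. Over the 3 libraries of a group, Col1a2 had 283 counts in sh-Pfkp, 10 in sh-Lin41 and 1 in sh-ctrl, Vcam1 had 359 counts in sh-Pfkp, 2 in sh-Lin41 and 1 in sh-ctrl, and Col3a1 had 292 in sh-Pfkp, 2 in sh-Lin41 and 2 in sh-ctrl. Col1a1 had 363 counts in sh-Pfkp, 92 in sh-Lin41 and 97 in sh-ctrl. The rise of Col1a2 in sh-Lin41 was not called by limma on log2(FPKM + 1), nor in some fits with 1 library left out. Pdgfrb, the receptor gene of pericytes and fibroblasts, went the other way. It averaged 2.57 ± 0.224 CPM in sh-Pfkp, 4.63 ± 0.719 CPM in sh-Lin41 and 8.28 ± 0.380 CPM in sh-ctrl (SD, n = 3 each), a log2 fold change of -1.68 in sh-Pfkp and -0.84 in sh-Lin41. By limma on log2(FPKM + 1) these were -0.80 in sh-Pfkp and -0.45 in sh-Lin41. Thy1 was also lower in sh-Pfkp. Postn, Dcn and Lum were at 0 in sh-Lin41 and sh-ctrl. In sh-Pfkp no marker of this list was at 0, and 3 of 9 were under 1 CPM. The part of other cell types in the differences of the 6 factors was not tested.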

How the data were processed

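Gene-level RNA-seq tables of 9 libraries were used. The submitters' processing notes list HISAT2 and RSEM without a version, StringTie 1.3.1, Bowtie2 2.2.8 and fastp 0.18.0. Build, annotation, strand setting and the tool behind the p-values were not given in the sources used here. Read counts per gene were deposited as whole numbers and may be rounded RSEM estimates. FPKM values per library were deposited beside them, per the file headers. The authors' deposited log2 ratio of mean FPKM, p-value and FDR were copied for the 6 factors only. Sample columns left unused numbered 0.

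Counts were fitted with edgeR 4.0.16 (R 4.3.3; filterByExpr, TMM, 9 libraries, 6 residual degrees of freedom), with Benjamini-Hochberg adjustment over 13158 genes. The SE was the size of the log2 fold change over the root of F. The biological coefficient of variation was 0.0213. Replicate pairs had a median chi-square of 0.661 to 0.769, against 0.455 from counting noise, and none was merged. The steps were tested on simulated data. Ratios to Pou5f1 used exact permutation. Alternatives were DESeq2 1.42.0, limma 3.58.1 on log2(FPKM + 1), other scaling and filters, a replicate block and omission of each library.

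Members and gene lists were chosen with earlier results of these data known. Of each list, up to 4 called genes per comparison with the smallest adjusted p and a mean of at least 1 CPM could be named, and for each factor the 3 genes with the most similar pattern, of which 1 is not reported here. The labels number the replicates without saying what a number stands for. Deviations from group means correlated between same-numbered sh-Pfkp and sh-ctrl libraries (r 0.108, 0.307 and 0.449 across genes), each over the 0.1 asked for. Different-numbered pairs of these 2 groups reached 0.143. The fits reported have no block, and the block was an alternative. Same-numbered pairs of sh-Lin41 with sh-ctrl had r from -0.130 to 0.0344, and of sh-Pfkp with sh-Lin41 from -0.314 to -0.000964. Different-numbered pairs reached 0.185 for sh-Lin41 with sh-ctrl and 0.402 for sh-Pfkp with sh-Lin41, so high values also arose between unlike numbers.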

Additional observations from a re-analysis of the deposited data

How the results depend on the processing

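Of 312 values of the 6 factors under other scaling, filters, tools and library sets, 311 kept their direction and their side of the threshold. The exception was Utf1 in sh-Pfkp against sh-ctrl. With each library left out in turn, the number of factors called lower in that comparison was between 1 and 2, and the log2 difference of the Utf1 to Pou5f1 ratio was between -0.0400 and 0.0176; the cause was not tested. With the median of the other 5 factors in place of Pou5f1 as the denominator, the Nanog ratio in sh-Pfkp against sh-ctrl was -0.0351 (exact permutation p 0.3). The Sox2 ratio in sh-Pfkp against sh-Lin41 was then -0.30 (exact permutation p 0.1). That median was the FPKM of 1 factor in each library, mostly Sox2 for Nanog and always Utf1 for Sox2, so it was no pooled reference. With the replicate number as a block, sh-Pfkp against sh-ctrl had 3714 genes higher and 3721 lower, beside 3721 and 3730 without it, and no call of the 6 factors changed. Of the calls in sh-Pfkp against sh-ctrl, 49.9% were higher, against 40.3% with library totals alone and 39.7% by limma on log2(FPKM + 1); for sh-Pfkp against sh-Lin41 these were 49.7, 40.1 and 40.8%. Other named genes gave 2063 values with the same call, 23 no longer called and 4 newly called, and 0 reversed. Apart from the hairpin targets, these genes were mostly named for a small adjusted p or a similar pattern in these same libraries. Their tally is therefore no independent check. Both tallies also hold fits that left out a library of the group not compared. The genes closest in pattern depended on the scale: with log2(FPKM + 1), chosen after seeing the data, 0 of 3 stayed for Sall4 and 1 of 3 for Fbxo15. Library totals alone moved the median of all genes to -0.05 in sh-Pfkp against sh-ctrl, beside -0.13 for Pou5f1 with that scaling, so scaling limits the smallest differences.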
